A study of Homo sapiens with 8 samples.

Results

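The 10 genes described here, AXIN2, DKK1, LGR5, NKD1, RNF43, ZNRF3, NOTUM, TCF7, LEF1 and SP5, are targets of beta-catenin, and several of them are feedback inhibitors of Wnt signalling. They were taken by gene symbol from the count table, which held all 10 among its 35394 genes. HCT116 is a human colorectal cancer cell line of epithelial origin, labelled here as carrying a ras mutation. As background, it also carries a mutation in beta-catenin itself. The cells received Pien Tze Huang (PZH), a traditional Chinese medicine formula, for 24 h, or DMSO, the solvent, as the control, and poly(A) RNA was sequenced. No dose is given in the sources used here. Each group had 4 libraries, and both groups are the same line with the same genotype. Nothing in the labels says that the replicates came from separate cultures, so the p-values measure only the spread between these libraries, which may be technical.

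In the canonical Wnt pathway a destruction complex built on AXIN and APC marks beta-catenin for degradation. When a Wnt ligand binds Frizzled and LRP receptors, or when mutation protects beta-catenin from the complex, beta-catenin enters the nucleus and drives transcription with TCF and LEF factors. Many of its targets encode brakes on the pathway, so their messages are widely used as a readout of its output, and in the intestine the same programme marks the stem cells at the crypt base.

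Of the 10 genes, 8 were measured well enough to be tested, and each of these 8 was lower in all 4 PZH libraries than in any DMSO library. Their fall ran from 2.07-fold for ZNRF3 to 24.8-fold for DKK1. The secreted inhibitor DKK1 and the scaffold AXIN2 fell the most, the nuclear factor TCF7 and the ubiquitin ligase ZNRF3 the least, and 6 of the 8 fell at least 4-fold. The other 2, LGR5 and LEF1, stood at 0 to 3 counts in every library. With edgeR (quasi-likelihood test, adjusted over all genes tested by Benjamini and Hochberg), 8 were called lower at an adjusted p under 0.05, and 0 higher, also at an unadjusted 0.05 and with DESeq2 or limma-voom. These counts stand against a transcriptome in which 40.9% of the 15006 genes tested were called lower, 39.3% were called higher and 38.4% had all PZH libraries below all DMSO libraries. A call at least 4-fold lower was made for 6.07% of all genes tested. The median log2 fold change (PZH over DMSO) of the 8 was -2.71, against -0.02 over all genes tested. SP5 passed the filter on low counts only through its DMSO level, so its inclusion favoured a difference. A count over the genes that passed is a description, not a test of the list.

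**Figure D1:**
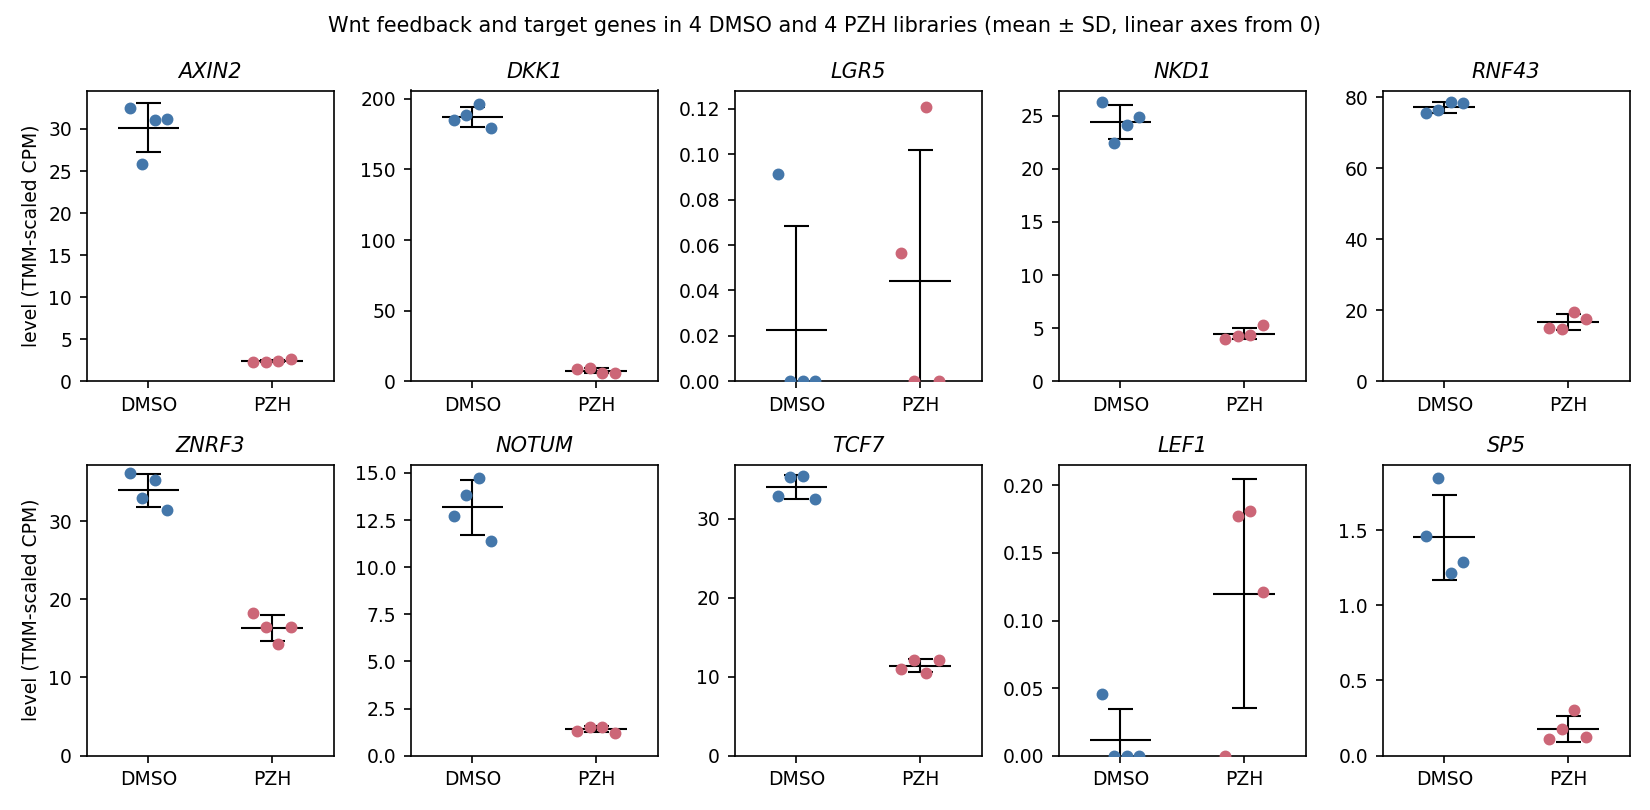
Level of each gene (vertical axis, TMM-scaled CPM, linear from 0, its own scale per panel) in the 4 DMSO and 4 PZH libraries; points are libraries and black marks show mean ± SD. In 8 panels the PZH points lie below the DMSO points; LGR5 and LEF1 show 0 to 3 counts per library.

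Libraries held 19288836 to 19917571 counts in DMSO and 18144117 to 18868057 in PZH. Levels are given as CPM (counts relative to the library total, after TMM scaling), and 3 counts, taken as the floor of a library, equal 0.151 to 0.165 CPM before scaling. Without scaling factors the median over all genes tested moved from -0.02 to -0.28, and the 8 genes then had log2 fold changes of -4.89 to -1.31. In that setting 7670 of the 15006 genes tested were called lower and 4473 higher. The 8 epithelial markers examined were all at 1 CPM or more and summed to 4112 to 4186 CPM in DMSO and 2908 to 3247 CPM in PZH (unscaled). Of these 8, 4 were called higher and 2 lower (3 and 5 without scaling factors). KRT8 went from 2053 to 897 CPM, which carried the fall of the sum, while CDH1 went from 86.7 to 226 CPM and CLDN7 from 92.2 to 306 CPM (unscaled means). Of 7 fibroblast markers in the table, 1 (COL1A1) averaged 1 CPM or more, and COL1A2 was at 0 in every library. The fibroblast sum was 11.7 to 14.3 CPM in DMSO and 17.5 to 21.4 CPM in PZH. None of the 6 endothelial, 9 immune or 3 erythroid markers in the table reached 1 CPM on average, and their summed levels were at most 1.58, 2.31 and 0.502 CPM in any library. The part of these other markers in the results was not tested.

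DKK1 and NOTUM act outside the cell. DKK1 is secreted and blocks the co-receptors LRP5 and LRP6. It was the most abundant of the 10 per exon length and stood at 185, 188, 196 and 179 CPM in DMSO replicates 1 to 4, and at 8.77, 9.39, 5.86 and 6.06 CPM in PZH replicates 1 to 4. The groups were far apart, and within PZH replicates 3 and 4 were lower than replicates 1 and 2. DKK1 fell 24.8-fold (log2 fold change -4.63 ± 0.088 SE, edgeR adjusted p = 6.91e-22). With PZH replicates 1 and 2 only the fall was 20.4-fold, and with replicates 3 and 4 only it was 30.9-fold. Among all genes tested, 17.6% had replicates 3 and 4 both below replicates 1 and 2, and ZNRF3 was the other one of the 8 to do so. An antisense gene, PRKG1-AS1, shares 212 of the 1790 exon bases of DKK1 in the GENCODE annotation; it had 125 counts over the DMSO and 27 over the PZH libraries, against 16003 and 511 for DKK1. Whether counting used the strand is unstated in the sources here, and reads in the shared bases cannot be assigned to either gene.

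NOTUM is a secreted enzyme that removes the lipid group Wnt ligands need to bind Frizzled. Its DMSO levels were 12.7, 13.8, 14.8 and 11.4 CPM and its PZH levels 1.302, 1.54, 1.51 and 1.21 CPM. The highest PZH library stood at 1.54 CPM and the lowest DMSO library at 11.4 CPM. The fall was 9.44-fold (log2 fold change -3.24 ± 0.15 SE, edgeR adjusted p = 4.99e-15).

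RNF43 and ZNRF3 are related transmembrane ubiquitin ligases that remove Frizzled receptors from the cell surface, and LGR5 is a receptor for R-spondins, which restrain these ligases. RNF43 stood at 75.6, 76.4, 78.6 and 78.3 CPM in DMSO and at 15.2, 14.8, 19.6 and 17.5 CPM in PZH. ZNRF3 stood at 36.1, 32.9, 35.3 and 31.5 CPM in DMSO and at 18.3, 16.5, 14.3 and 16.4 CPM in PZH. Both fell, RNF43 by 4.61-fold (edgeR adjusted p = 4.86e-18) and ZNRF3 by 2.07-fold (edgeR adjusted p = 2.98e-11). Their ratio within a library, which does not depend on scaling between libraries, was tested for a difference. RNF43 had 2.09 to 2.49 counts per ZNRF3 count in DMSO and 0.830 to 1.37 in PZH. The groups did not overlap, and the mean log2 ratio went from 1.19 ± 0.105 to 0.032 ± 0.32 (mean ± SD over 4 libraries per group; two-sided exact permutation p = 0.0286, the smallest that 70 assignments allow, also 0.0286 after adjustment over the 4 pairs tested). RNF43 thus fell more than ZNRF3, by 2.23-fold. In GENCODE, 4313 of the 7367 exon bases of RNF43 are shared with AC004687.2, annotated as protein-coding on the same strand and not a row of the count table, so the RNF43 count may hold reads of both. RNF43 also shares 1220 exon bases with the antisense gene TSPOAP1-AS1 (43 counts in DMSO, 8 in PZH) and 143 with SUPT4H1 on the same strand (5828 and 3344 counts).

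**Figure D2:**
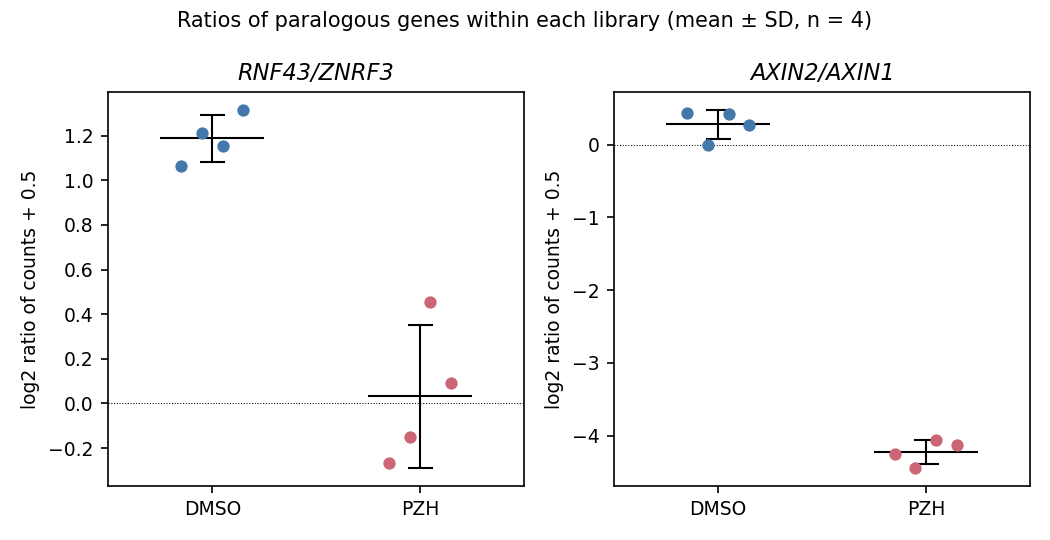
Log2 ratio of counts (+ 0.5 each, vertical axis, different scale per panel) of RNF43 to ZNRF3 and of AXIN2 to AXIN1 in each library; points are libraries and black marks show mean ± SD (n = 4). RNF43/ZNRF3 fell from a mean of 1.19 to 0.032 and AXIN2/AXIN1 from 0.28 to -4.22, with no overlap between groups.

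LGR5 had 2, 0, 0 and 0 counts in DMSO replicates 1 to 4 and 1, 0, 2 and 0 in PZH. All 8 libraries lay under the floor of 3 counts, so the LGR5 message was not detectable at this depth in either group, and no fold is given. In a fit without the filter on low counts LGR5 did not pass (edgeR adjusted p = 0.683). Among the related receptors on the pathway list, LGR4 fell 6.09-fold from 14.8 ± 0.728 to 2.44 ± 0.622 CPM (SD, n = 4). LGR6, chosen after its values were seen, had 15 counts over the DMSO and 57 over the PZH libraries (edgeR adjusted p = 1.63e-04). It passed the filter on low counts only through PZH, so its inclusion favoured a rise.

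AXIN2 and NKD1 act in the cytoplasm. AXIN2 is a scaffold of the destruction complex and NKD1 an inhibitor that binds Dishevelled. AXIN2 was at 32.5, 25.9, 31.0 and 31.2 CPM in DMSO, with replicate 2 lowest, and at 2.26, 2.30, 2.48 and 2.61 CPM in PZH. Its fall was 12.5-fold (log2 fold change -3.64 ± 0.113 SE, edgeR adjusted p = 3.00e-18). The constitutive paralog AXIN1, which has the same scaffold role, moved the opposite way, from 24.8 ± 1.33 to 45.6 ± 3.81 CPM (SD, n = 4), a 1.84-fold rise (edgeR adjusted p = 5.10e-11). AXIN2 had 0.998 to 1.35 counts per AXIN1 count in DMSO and 0.0460 to 0.0598 in PZH, a fall of this ratio by 22.6-fold (log2 difference -4.50, exact two-sided permutation p = 0.0286, adjusted p = 0.0286 over 4 pairs). In GENCODE, 1316 of the 4632 exon bases of AXIN2 are shared with AC004805.1, annotated as protein-coding on the same strand (2 counts in DMSO, 0 in PZH). Reads in these shared bases cannot be assigned to either gene.

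NKD1 was at 26.3, 22.4, 24.1 and 24.9 CPM in DMSO and at 4.02, 4.31, 4.41 and 5.27 CPM in PZH. The groups did not overlap and the fall was 5.42-fold (log2 fold change -2.44 ± 0.104 SE, edgeR adjusted p = 8.98e-16). Its paralog NKD2, named after its values were seen, went from 9.03 ± 0.95 to 12.0 ± 1.34 CPM (SD, n = 4; edgeR adjusted p = 0.00207), a call lost without scaling factors (edgeR adjusted p = 0.231).

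TCF7, LEF1 and SP5 encode nuclear proteins. TCF7 and LEF1 are partners through which beta-catenin reaches DNA, and SP5 is a zinc finger factor that represses Wnt targets. TCF7 stood at 32.8, 35.3, 35.4 and 32.5 CPM in DMSO and at 10.9, 12.05, 10.5 and 12.1 CPM in PZH. It fell 2.99-fold (log2 fold change -1.58 ± 0.077 SE, edgeR adjusted p = 1.12e-14). The count is per gene and does not separate TCF7 isoforms with and without the beta-catenin binding domain. LEF1 had 1, 0, 0 and 0 counts in DMSO and 0, 3, 3 and 2 in PZH. No LEF1 library exceeded the floor of 3 counts. Summed over libraries, 8 counts in PZH against 1 in DMSO gave a ratio of 8.44 per unit depth, with an exact 95% binomial interval of 1.13 to 374.5 for counting error only. In fits that kept LEF1 it did not pass (edgeR without the filter, adjusted p = 0.0922; DESeq2, adjusted p = 0.119). TCF7L2, another TCF on the fixed lists, fell 4.08-fold from 203 ± 5.68 to 49.8 ± 2.52 CPM (SD, n = 4; edgeR adjusted p = 3.25e-20).

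SP5 was low in both groups, with 32, 39, 26 and 27 counts in DMSO and 2, 3, 5 and 2 in PZH, which is 1.46, 1.85, 1.21 and 1.29 CPM against 0.113, 0.177, 0.302 and 0.121 CPM. The groups were separate although each PZH value rests on 5 counts or fewer. Only PZH replicate 3 exceeded the floor of 3 counts, and SP5 passed the filter on low counts only through DMSO. The fitted fall was 7.93-fold (log2 fold change -2.99 ± 0.395 SE, edgeR adjusted p = 3.89e-07). Summed over libraries, 124 against 12 counts gave a ratio of 9.79 per unit depth (unscaled), with an exact 95% binomial interval of 5.41 to 19.5 that covers counting error only.

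TCF and LEF proteins recognise a short sequence with the core CTTTGA or CTTTGT, so the DNA just before the start sites was searched for these letters on both strands. RefSeq promoters (GRCh38.p14) were available for 5 of the 10 genes, DKK1, RNF43, TCF7, LEF1 and SP5, RNF43 and TCF7 having 2 start sites each. None was available for AXIN2, LGR5, NKD1, ZNRF3 and NOTUM, so these were not searched. Only the 250 bases before each start were used. At least 1 match stood in 22.8% of all 35116 promoters of that length in the table, at least 2 in 4.11%, at least 3 in 0.584% and at least 4 in 0.057%. SP5 held 4 matches and DKK1 3. The second start site of TCF7 held 2 and its first held 0, each start site of RNF43 held 1, and LEF1 held 0. The windows below are those with the most matches, from genes that fell; all are on the plus strand, printed 5′ to 3′ up to the base before the start, with matches on either strand in capitals (TCAAAG and ACAAAG are the cores on the other strand). They are chr2:170715087-170715336 for SP5, chr10:52314031-52314280 for DKK1 and chr5:134123368-134123617 for the second start of TCF7.
SP5: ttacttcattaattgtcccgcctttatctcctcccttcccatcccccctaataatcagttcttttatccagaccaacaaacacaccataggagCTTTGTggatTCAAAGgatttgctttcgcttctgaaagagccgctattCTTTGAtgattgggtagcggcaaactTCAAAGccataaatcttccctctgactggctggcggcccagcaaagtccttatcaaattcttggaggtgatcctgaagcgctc
DKK1: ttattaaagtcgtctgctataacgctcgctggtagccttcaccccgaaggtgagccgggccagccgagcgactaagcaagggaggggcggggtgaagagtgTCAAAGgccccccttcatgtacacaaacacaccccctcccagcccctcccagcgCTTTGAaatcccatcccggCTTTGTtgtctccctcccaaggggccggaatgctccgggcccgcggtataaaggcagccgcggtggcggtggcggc
TCF7, second start: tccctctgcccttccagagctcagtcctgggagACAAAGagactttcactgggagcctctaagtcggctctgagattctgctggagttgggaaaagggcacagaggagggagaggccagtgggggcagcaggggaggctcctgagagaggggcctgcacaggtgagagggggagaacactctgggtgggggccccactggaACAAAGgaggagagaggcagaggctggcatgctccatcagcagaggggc
The 4 matches in SP5 began 157, 147, 109 and 83 bases before the start, and the 3 in DKK1 began 149, 95 and 76 bases before it. In TCF7 they lay 217 and 49 bases before the second start. A match is a description of the letters and not evidence of binding.

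Levels were compared between genes per kilobase of merged GENCODE exons (CPM per kb), since longer messages collect more reads. NKD1 had the longest merged exons, 17.1 kb against 7.37 kb for RNF43, the next longest. The annotation used for counting is unstated, so the place of NKD1 in particular depends on this choice of length. In DMSO the order was DKK1 (105), RNF43 (10.5), TCF7 (8.25), AXIN2 (6.51), NOTUM (5.66), ZNRF3 (4.87), NKD1 (1.43) and SP5 (0.714 CPM per kb). The ranges of AXIN2 and NOTUM overlapped, with AXIN2 higher in 3 of 4 libraries. Those of NOTUM and ZNRF3 overlapped too, although NOTUM was the higher in 4 of 4 libraries. In PZH the order was DKK1 (4.20), TCF7 (2.76), ZNRF3 (2.35), RNF43 (2.28), NOTUM (0.597), AXIN2 (0.521), NKD1 (0.263) and SP5 (0.0878 CPM per kb). Here the ranges of TCF7, ZNRF3 and RNF43 overlapped each other, with TCF7 above ZNRF3 in 4 of 4 libraries and ZNRF3 above RNF43 in 2 of 4. The range of NOTUM overlapped that of AXIN2, with NOTUM higher in 3 of 4. None of these orders was tested. AXIN2 stood above ZNRF3 in DMSO in every library and below it in every PZH library.

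**Figure D3:**
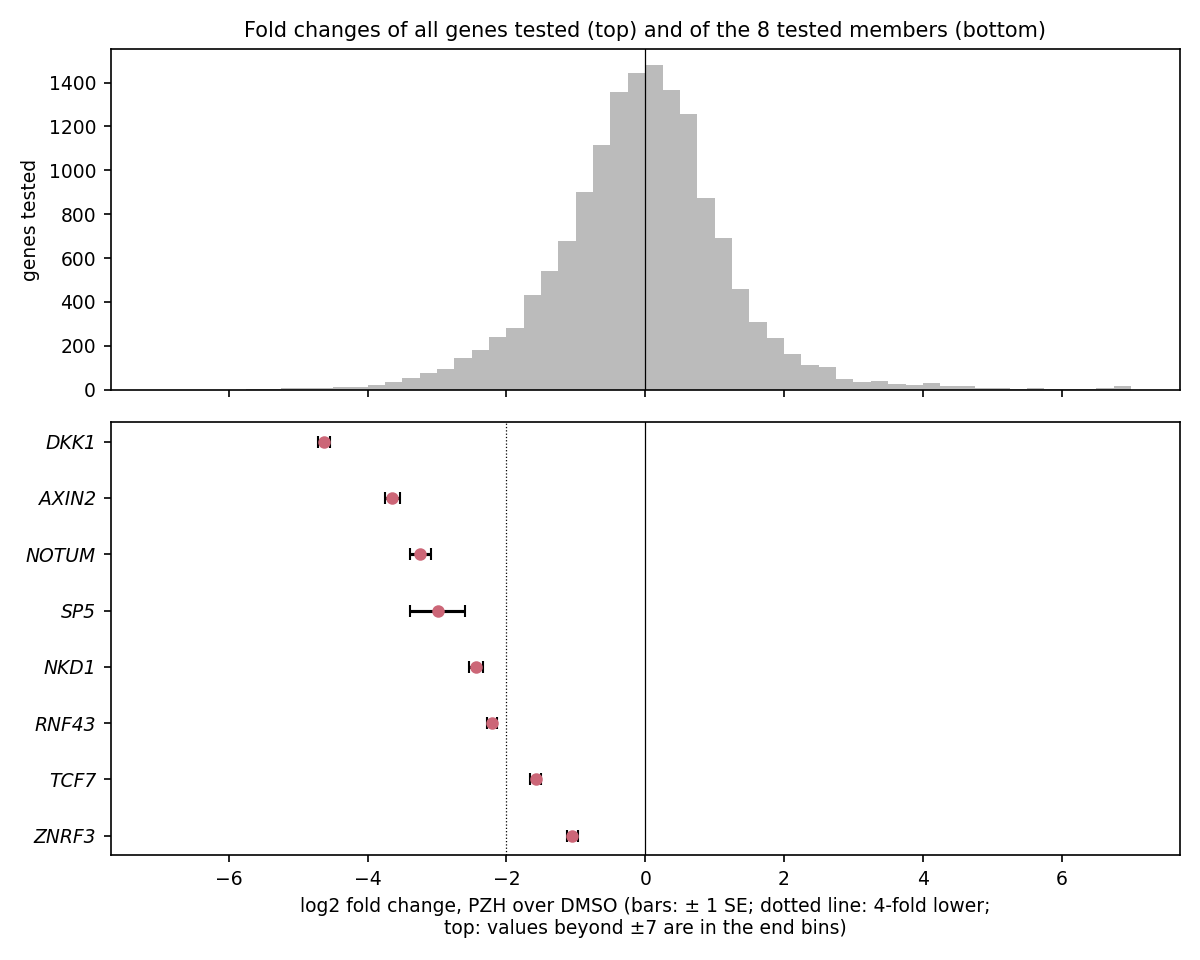
Top, number of genes tested (vertical axis) by log2 fold change of PZH over DMSO; bottom, the same scale for the 8 tested genes with bars of ± 1 SE. DKK1 lies at -4.63 and ZNRF3 at -1.05, and 6 of 8 lie beyond the dotted line at 4-fold lower.

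Ranked among the 15006 genes tested from the most negative fold change, DKK1 stood at the percentile 0.187, AXIN2 at 0.666, NOTUM at 1.16 and SP5 at 1.67. NKD1 stood at 3.50, RNF43 at 4.77, TCF7 at 9.88 and ZNRF3 at 18.0. Likeness to AXIN2 over the 8 libraries was taken as the root mean square difference in log2 CPM centred on each gene's DMSO mean. Outside the 10 genes, and with clone, LOC and date names left out, the nearest were LYPD6 (0.1099), the replication helicase subunit MCM2 (0.131) and ADAM19 (0.151). This measure mainly reflects the size of the fall. Their log2 fold changes were -3.65, -3.59 and -3.64, against -3.64 for AXIN2. Among the 10 feedback and target genes, the nearest to AXIN2 was NOTUM (0.365), and DKK1, NKD1 and SP5 lay at 0.805 to 0.845.

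Other genes reported as Wnt targets divided. Of 26 listed, 17 were tested, 11 were called lower and 4 higher (13 and 2 without scaling factors), with a median log2 fold change of -0.33. Over all 15006 genes tested, 40.9% were called lower and 39.3% higher. Without scaling factors 7670 of these 15006 were called lower and 4473 higher. The transcription factor gene SOX4 fell 16.9-fold and ID2, an inhibitor of differentiation, fell 8.03-fold. SOX9, a factor of crypt progenitors, fell 4.24-fold and cyclin CCND1 fell 3.88-fold (edgeR adjusted p = 5.45e-18 or smaller for these 4). Of the 4 called higher, named after their values were seen, ETS2 rose 1.81-fold (edgeR adjusted p = 7.12e-13) and NEDD9 went from 21 to 189 counts over the libraries (log2 fold change 3.47, edgeR adjusted p = 6.15e-09), having passed the filter only through PZH. The smaller rises of NKD2 and PROM1 were not called without scaling factors (edgeR adjusted p = 0.231 and 0.923). The oncogene MYC, named after its values were seen, averaged 242 ± 10.8 CPM in control and 250.0 ± 40.1 CPM in treated cells and did not pass (SD, n = 4; edgeR adjusted p = 0.581), but leaving out the scaling factors made it a lower call (-0.22 on the log2 scale, edgeR adjusted p = 0.00638). Of the 17 genes, 4 fell at least 4-fold, against 6 of the 8 feedback and target genes and 6.07% of all genes tested. Among the 4, TNFRSF19, named after its values were seen, had 4, 1, 8 and 3 counts in PZH. It passed the filter on low counts only through DMSO, as did SP5 among the 6, so both counts were favoured by the filter. The difference between these lists was not tested.

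**Figure D4:**
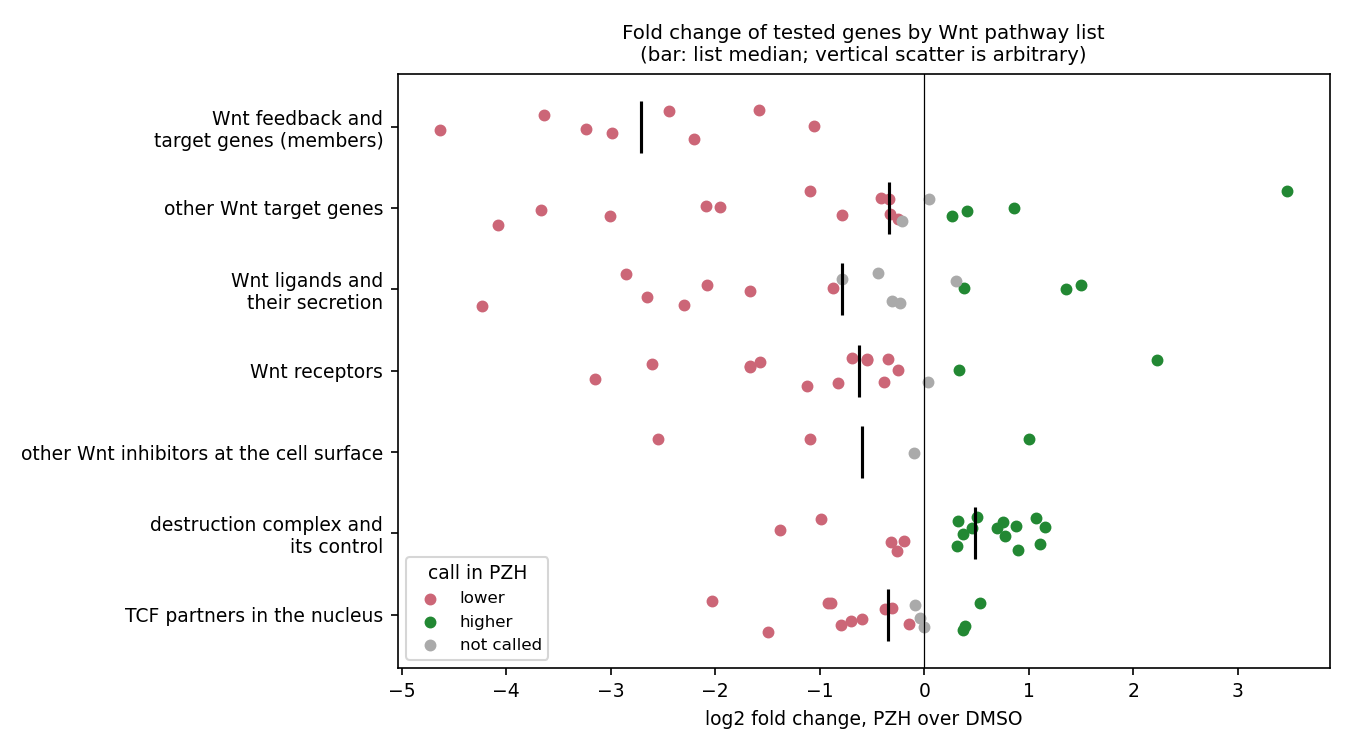
Log2 fold change of PZH over DMSO (horizontal axis) for each tested gene, by list; colour gives the call and the black bar the list median. The median is -2.71 for the feedback and target genes, -0.33 for other Wnt targets and 0.48 for the destruction complex and its control. The last list also holds CTNNB1, the Dishevelled genes and the tankyrases.

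Of the Wnt ligands and their secretion genes, 15 of 25 were tested, 7 were lower and 3 higher (9 and 2 without scaling factors), with a median log2 fold change of -0.79. Over all genes tested 40.9% were called lower and 39.3% higher. The share of ligand genes called lower was near that background and is not read as a result about this list. At least 4-fold lower were 5 of the 15, against 6.07% of all genes tested, a difference that was not tested. WNT16 fell 18.8-fold from 78.0 ± 4.69 to 4.14 ± 0.507 CPM, WNT3A fell 6.28-fold, and WLS, the carrier that brings Wnt ligands to the cell surface, fell 3.19-fold. WNT9A rose 2.84-fold from 4.65 ± 0.6 to 13.2 ± 1.6 CPM (SD, n = 4 per group). Of 18 receptors, 16 were tested, 13 were lower and 2 higher, with a median of -0.62. The receptors FZD4 and FZD3 fell 8.89-fold and 3.19-fold, and the co-receptor PTK7 fell 2.18-fold. Of 17 other inhibitors at the cell surface, 4 were tested. The DKK receptors KREMEN1 and KREMEN2 fell 2.13-fold and 5.85-fold (KREMEN1 also stands among the other Wnt targets, as does the receptor FZD7). FRZB, a secreted Wnt antagonist, was higher at 1.55 ± 0.109 against 0.775 ± 0.207 CPM (SD, n = 4; edgeR adjusted p = 0.00268).

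Genes of the destruction complex and its control went mostly the other way, with 13 of 18 called higher and 5 lower (10 and 5 without scaling factors) and a median log2 fold change of 0.48. Over all genes tested 39.3% were called higher and 40.9% lower. The kinase genes CSNK1A1 and CSNK1D rose 2.15-fold and 1.62-fold, and the tankyrases TNKS and TNKS2, enzymes that mark AXIN for degradation, rose 1.87-fold and 2.23-fold. Among the 5 that fell, named after their values were seen, the APC-binding gene AMER1 fell 2.60-fold (edgeR adjusted p = 1.64e-10) and the Dishevelled gene DVL2 fell 1.98-fold (edgeR adjusted p = 2.61e-12). CTNNB1, the beta-catenin gene, went from 468 ± 6.74 to 375 ± 14.8 CPM (SD, n = 4; 1.25-fold lower, edgeR adjusted p = 1.22e-06), and APC was 1.20-fold lower (edgeR adjusted p = 4.76e-04). Of 17 genes listed as nuclear partners of TCF, 16 were tested, 10 were lower and 3 higher, with a median of -0.34. This list includes TCF7L1 and TCF7L2 themselves and mixes activators with repressors, so its median does not describe a single class. Beside TCF7L2, the deacetylase HDAC1 fell 2.82-fold, the chromatin remodeller SMARCA4 fell 1.86-fold and PYGO2, which binds beta-catenin through the adaptor BCL9, fell 1.74-fold. These are messages, and neither beta-catenin protein nor its location was measured.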

How the data were processed

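Poly(A) RNA of HCT116 cells was sequenced in 4 DMSO and 4 PZH libraries. Tools listed in the submitters' processing notes, with no role, are HISAT2 2.1.0, FastQC 0.11.5, DESeq 1.28.0 and StringTie 1.3.3b. The sources used here give no build, annotation or use of strand. The authors deposited raw counts per gene symbol, 1 column per library. The table holds 25 gene names turned into dates (0.178% to 0.220% of counts), kept unnamed in library sizes and tests.

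Genes were kept by filterByExpr (minimum count 10, minimum total 15), leaving 15006, and compared by edgeR 4.0.16 (TMM, glmQLFit, glmQLFTest, group only, R 4.3.3), two-sided, Benjamini-Hochberg over all genes tested, threshold 0.05. SE is the log2 fold change over the square root of F. Ratios used counts + 0.5 and exact permutation (scipy 1.17.1). No replicate pair matched within counting noise (chi-square over its degrees of freedom 2.39 to 2.81 in DMSO and 4.03 to 12.3 in PZH), so none was merged. The PZH libraries thus differed more among themselves than the DMSO libraries, and replicates 3 and 4 were the closest PZH pair (4.03). Exon lengths came from GENCODE, promoters from RefSeq. The edgeR script was tested on simulated data. Members and lists were chosen with earlier results of these data known. Named were the 10 genes, up to 4 called genes with the smallest p per Wnt list (2 where fewer than 2 were called), CTNNB1, APC, TCF7L2, the pair partners and the 3 genes most like AXIN2. LGR6, NKD2, MYC, ETS2, NEDD9, PROM1, TNFRSF19, AMER1, DVL2 and FZD7 lie outside this rule, as do cell type markers. Alternatives were other scaling (RLE, upper quartile, none), no filter, CPM of at least 1 in 4 libraries, DESeq2 1.42.0, limma-voom (limma 3.58.1), a replicate block, leaving out each library, and 2 PZH libraries at a time.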

Additional observations from a re-analysis of the deposited data

Results flagged for a closer look

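Over the 39 genes named by the rule and 78 groups of 4 libraries with any spread, 2 held a library far from the other 3. Where the other 3 libraries are at 0 any count is flagged, so the number flagged is not compared with chance. LGR5 was at 0.0913 CPM in DMSO replicate 1 and at 0 in the other DMSO libraries. LEF1 was at 0.0457 CPM in DMSO replicate 1 and at 0 in the others. These values are 2 counts and 1 count, under the floor of 3 counts.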

How the results depend on the processing

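The number of genes called lower (8), called higher (0) and called lower at least 4-fold (6) was the same in each of the 18 alternatives to the edgeR comparison, including each left-out library and the replicate block. The count at least 4-fold lower was 6 also without any one library. The 8 genes kept direction and call in 144 of 144 refitted values. The 29 other genes named by the rule did so in 522 of 522. Most of these 29 were picked by the smallest p of a list or by likeness to AXIN2, which favoured a stable call. MYC, NKD2 and PROM1, named after their values were seen, are not among the 29, and their calls changed without scaling factors. Log2 fold changes over all settings ran from -4.95 to -4.35 for DKK1, -3.90 to -3.54 for AXIN2, -3.50 to -3.17 for NOTUM, -3.34 to -2.72 for SP5, -2.70 to -2.31 for NKD1, -2.46 to -2.04 for RNF43, -1.84 to -1.53 for TCF7 and -1.31 to -0.95 for ZNRF3. The median of -2.71 was -2.97 without scaling factors, and -2.335 with no filter and -2.31 with DESeq2, where LGR5 and LEF1 entered it. On leaving out 1 library it ran from -2.85 to -2.58.

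Replicate numbers pair nothing in the labels, and same-numbered libraries deviated together only weakly (correlations 0.00477 to 0.0875). Libraries numbered 1 and 2 correlated best with their own number and the others did not. The block left the same number of these genes, 8, called lower, and 6125 lower and 5889 higher over all genes. For the ratios, 3 libraries against 4, 2 against 4, and 4 pairs cannot reach 0.05 in an exact permutation test (smallest p 0.0571, 0.133 and 0.125), so only values are given. RNF43/ZNRF3 changed by -1.16 with the block, -1.40 with PZH replicates 1 and 2, -0.91 with replicates 3 and 4, and -1.30 to -1.06 without 1 library. AXIN2/AXIN1 gave -4.50 with the block, -4.63 and -4.37 in the same subsets and -4.59 to -4.43 without 1 library. The pairs TCF7/LEF1 (main -3.50; block -3.50; subsets -2.875 and -4.13; -4.17 to -3.18 without 1 library) and LGR5/LGR4 (3.36; block 3.36; 3.29 and 3.42; 2.86 to 3.94) rest on LEF1 and LGR5 at or under 3 counts, where the added 0.5 sets the ratio, and are not read.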
